A study of Gallus gallus with 16 samples.

Results

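In the pineal gland of the chick, 149 genes differed from dark controls in the same direction under 2 light treatments sampled in the evening, 64 towards a higher and 85 towards a lower ratio. The genes were chosen by that pattern, so their differences at that hour describe the choice and carry no test. The first light was a 2 h extension of the day (early-night light) and the second a long day, and both were compared at ZT14, that is 14 h after lights-on (ZT0). A gene, taken as the mean of its probes, was a member when the light pools differed from their own dark controls by at least 0.5 on the log2 scale, with the same sign, in both comparisons. Members came from 6466 genes with a symbol. TXN, BDNF, SIK1, MACIR, LONRF1 and symbols starting with NDUF, ATP5, RPL, RPS or SLC were left out by name, among them 8 genes that met the rule upwards and 4 that met it downwards. The 64 genes are called the higher set and the 85 genes the lower set.

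The glands came from male Rhode Island Red chicks aged 1 week, and each array carried RNA of 1 pool of 5 to 6 glands beside a common reference made from all 16 pools. Every control group lived in 12 h of light and 12 h of darkness. Early-night light (paradigm 2) was given from ZT12 to ZT14 on the last day, with glands taken at ZT14 from 2 light pools and from control pools 1 and 2. The long day (paradigm 3) is 17 h light and 7 h dark in the sample titles and 15 h light and 9 h dark in the design text, with glands taken at ZT14 from 2 light pools and from control pools 3 and 4. Its light pools thus lived in another light cycle than their controls, so light at ZT14 and day length cannot be told apart there. Late-night light (paradigm 1) was given from ZT22 to ZT24, with glands taken at ZT0 from 4 light pools and 4 control pools. Late-night light shares no pool with the choice of members, so its differences lie outside the rule. Its SE and p-values are not wholly separate from the choice. The fit took their variance from all 16 arrays, the ZT14 pools included.

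The avian pineal gland is a light-sensitive endocrine organ: its pinealocytes hold photopigments, a circadian clock and the enzymes that make melatonin, which is secreted at night. Light at night lowers melatonin output and shifts the phase of the clock, and cAMP, calcium and the transcription factors that they control are the best known links between light and gene expression in these cells. The gland also holds vessels with endothelial cells and pericytes, blood cells, glia and connective tissue, all of which add RNA to a whole-gland pool. Since whole glands were measured, fewer cells of a type and less RNA per cell cannot be told apart. The reference holds the same 16 pools, so a ratio shows only whether a marker differs between pools, not whether the tissue has it.

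All values are deposited log ratios of a pool and the reference, taken as log2, since no source used here gives the log base. The numerator is unstated too, and "higher" and "lower" mean a higher or lower deposited ratio. All 16 arrays are labelled with the same dye orientation. The lowest correlation between a pair of arrays was -0.290 over all features on the array and -0.306 over genes. The direction is not settled, since nothing names the numerator. With the reference as numerator every sign turns together and the higher set becomes the lower set. The arrays also differed in spread. The SD over probes was 0.820 to 1.08 for the long day and its controls, 0.391 to 0.510 in paradigm 2 and 0.248 to 0.547 in paradigm 1. Between 15554 and 15603 probes were measured per array, and all 149 members had a value on all 16 arrays. A gene with several probes could take its value on an array from only some of them. The files used hold no intensities, so the number of arrays limits the precision.

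A difference of 0.5 was common over all genes, above all in the long day. Of 6660 genes with a symbol, 5.78% were at least 0.5 higher and 5.57% at least 0.5 lower after early-night light, and 16.2% were at least that much higher and 15.1% lower in the long day. The rule took 2.3% of the 6466 genes it could take. Another 133 of these genes passed the same size with opposite signs in the 2 paradigms. These are the genes that would count as alike if the ratios of 1 ZT14 paradigm ran the other way. The 149 genes with the same sign stand beside these 133 with opposite signs. The count of 149 thus does not by itself show a response common to both paradigms. Among features with no symbol, 75 met the rule upwards and 78 downwards, and they are not described further.

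In the higher set the median difference was 0.61 with early-night light, and under the long day it was 0.80. In the lower set the medians were -0.68 and -0.84. The early-night difference was the smaller of the pair in 45 of the 64 higher and 56 of the 85 lower genes, so the paradigm with the narrower arrays set the limit for most members. A size of 0.75 in both paradigms was reached by 8 higher and 15 lower genes, and a size of 1 by SPP1 alone in the higher set and by ATP6V0A2 alone in the lower set. Light and dark pools did not overlap in either paradigm for 31 higher and 35 lower genes, where 3.72% of all genes lay above dark and 3.57% below dark in both.

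**Figure D1:**
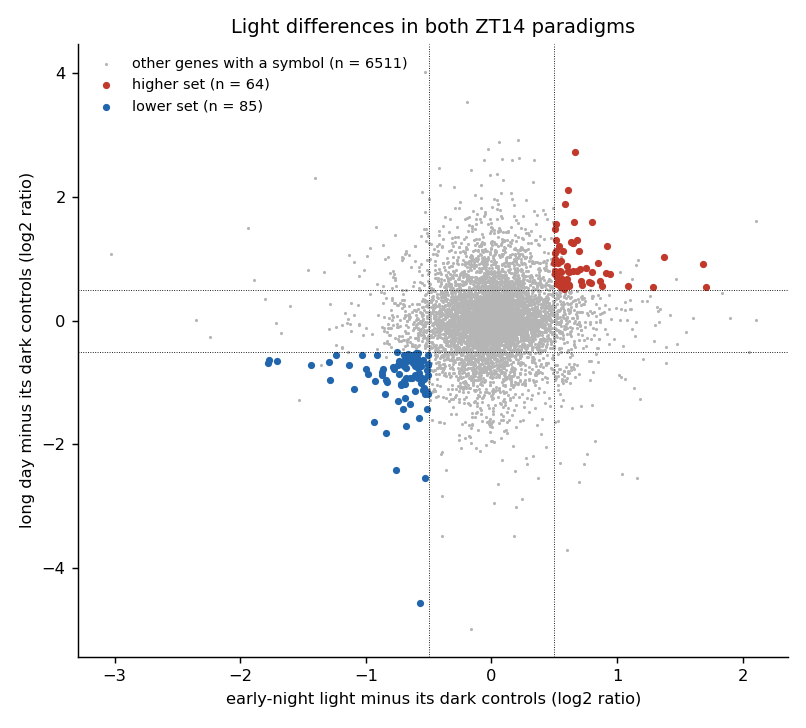
Each point is a gene with a symbol, with early-night light minus its dark controls on the horizontal axis and the long day minus its dark controls on the vertical axis, both as log2 ratios. The 64 genes of the higher set (red) and the 85 of the lower set (blue) lie beyond 0.5 on both axes (dotted lines), and the vertical spread of all genes is wider than the horizontal one.

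Just inside the limit lay ZNF830, a protein tied to splicing, with 0.501 and 0.929 in the 2 paradigms, the secreted protease inhibitor FETUB with 0.574 and 0.506, and the calcium-dependent kinase CAMK2D with 0.507 and 0.992. Just outside lay GALNT9 (0.498 and 0.715), DPEP1 (0.784 and 0.497) and CDK5RAP3 (0.492 and 0.736). On the lower side, the axoneme protein CFAP43 (-0.504 and -0.879), the kinesin adaptor TRAK1 (-0.505 and -0.548) and the imidazoline-binding protein NISCH (-0.750 and -0.507) were just inside. NRAP (-0.49996 and -0.638), RASSF9 (-0.498 and -0.940) and C21orf91 (-0.497 and -1.16) were just outside. Members and non-members at the edge thus had like values.

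With 2 pools a group, single pools decided many memberships. When each of the 8 ZT14 pools was left out in turn, 5 higher and 5 lower genes met the rule every time. The smallest overlap with the full higher set, 39 of 64 genes, came without early-night light pool 1 and equally without early-night dark pool 2. For the lower set it was 45 of 85, without early-night dark pool 2. Each omission also admitted other genes, so the sets then held 72 to 112 higher and 77 to 137 lower genes. With all 4 ZT14 dark pools as the controls of both paradigms the differences share their controls, so agreement in sign then carries no weight. Even so, 11 members lost their sign in 1 paradigm: CPA6, N4BP1, GOLT1A and SPIA9 of the higher set, and AOX1, OVCH1, FKBP5, CHRNB4, ABCA13, RCBTB2 and DRD4 of the lower set. After quantile normalization or scaling of the arrays to equal SD all 149 kept both signs, with 23 higher and 30 lower members past 0.5 under the first and 20 and 33 under the second.

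The 5 higher genes that met the rule without any 1 pool were SPP1, MGAT4C, PROCR, HPS3 and IRAK4. SPP1 encodes osteopontin, a secreted phosphoprotein of bone, matrix and immune cells. Its ratios were 0.78 and 0.43 with early-night light against -0.54 and -1.002 in darkness, and 0.15 and 0.64 in the long day against -0.52 and -0.73 in its controls. The light pools lay above the dark pools in both paradigms, by 1.38 and 1.02. MGAT4C, a member of the enzyme family that branches N-glycans, had 0.61 and 0.28 against -0.29 and -0.21 and 0.38 and 1.56 against -0.053 and -0.25. Long-day pool 2 stood above the other light pools of MGAT4C, and no light pool reached down to a dark one.

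PROCR is the receptor through which endothelial cells help to activate protein C. Early-night light pools had 0.53 and 0.33 and their controls -0.14 and -0.32, and long-day pools 1.42 and 1.79 against 0.070 and -0.035. The light pools were the higher ones both times, by 0.66 and, on the arrays of wider spread, by 1.59. The mean ratio of the other 11 endothelial markers measured was higher in light in both paradigms. It lay between -0.0601 and -0.0169 in early-night light and between -0.162 and -0.0967 in its controls. In the long day it lay between 0.0019 and 0.352 against -0.266 to -0.24. The markers did not all go that way. With PROCR counted, 8 of 12 had a positive difference after early-night light and 9 of 12 in the long day. KDR differed by -0.015 and 2.36, and PECAM1 by -0.59 and -0.23. The part of these markers in the PROCR difference was not tested.

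HPS3 is a subunit of a complex that forms lysosome-related organelles. Its ratios were 0.22 and 0.15 against -0.45 and -0.39 after early-night light and -0.59 and -0.57 against -3.92 and -1.46 in the long day. Long-day dark pool 3 was the lowest of all 16. The gene has 2 probes that disagreed: they differed by 0.45 and 0.76 after early-night light, and by -0.59 and 2.44 in the long day. The long-day difference of the gene, 2.10, is not the mean of these 2, so a probe lacked a value in some long-day pool. The long-day ratios of HPS3 thus do not all rest on the same probes, and their difference is partly a change of probes. IRAK4, the kinase next to the receptors for Toll-like ligands and interleukin-1, had 0.39 and 0.010 against -0.91 and -0.86 and 0.22 and 0.32 against -0.30 and -0.27. Its 4 dark pools all lay below its 4 light pools. The difference was larger after early-night light (1.08) than in the long day (0.56), the reverse of most members. After quantile normalization or scaling the IRAK4 difference in the long day was 0.35 or 0.32, below the limit, while SPP1, MGAT4C, PROCR and HPS3 stayed past it.

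The 5 lower genes that met the rule without any 1 pool were RGS20, RBSN, OVCH1, DIRAS2 and ATF1. RGS20 speeds the switching-off of inhibitory G protein alpha subunits. It had 0.50 and 0.093 in early-night light against 0.84 and 2.32 in darkness and 0.29 and 0.026 in the long day against 1.40 and 0.82. Early-night dark pool 2 was the highest of the 16 pools, and light and dark did not overlap. RBSN, a Rab effector of early endosomes, had -0.26 and 0.067 against 0.46 and 1.31 and -0.44 and -0.80 against 0.50 and -0.00093. In each paradigm 1 dark pool carried more of the RBSN difference than the other.

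OVCH1 is predicted to be a secreted serine protease. Its pools had -1.25 and -1.58 against -0.30 and -0.54 after early-night light and 0.32 and 0.57 against 1.004 and 1.47 in the long day. Each paradigm separated light from dark, but the long-day light pools lay above the early-night dark pools. With all 4 ZT14 dark pools as controls the long-day difference of OVCH1 was therefore 0.039 and no longer negative. DIRAS2, a small GTPase of the Ras family found mainly in the brain, had -0.25 and -0.53 against 0.40 and 0.16 and -0.11 and -0.17 against 0.44 and 0.56. Its 4 light pools were all negative and its 4 dark pools all positive, and the differences of -0.66 and -0.64 were nearly equal.

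ATF1 belongs to the CREB family of transcription factors, which are phosphorylated when cAMP or calcium rises. Its ratios were 0.26 and 0.11 with early-night light against 0.88 and 0.71, and 0.16 and 0.36 in the long day against 1.07 and 1.198. The highest light pool of ATF1 lay clearly below the lowest dark pool across both paradigms. All 3 ATF1 probes were lower in light in both, with differences of -0.25 to -1.08 and of -0.37 to -1.15. After quantile normalization or scaling the long-day differences of RGS20, OVCH1, DIRAS2 and ATF1 were between -0.35 and -0.48, short of the limit, and RBSN alone of the 5 stayed past it.

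**Figure D2:**
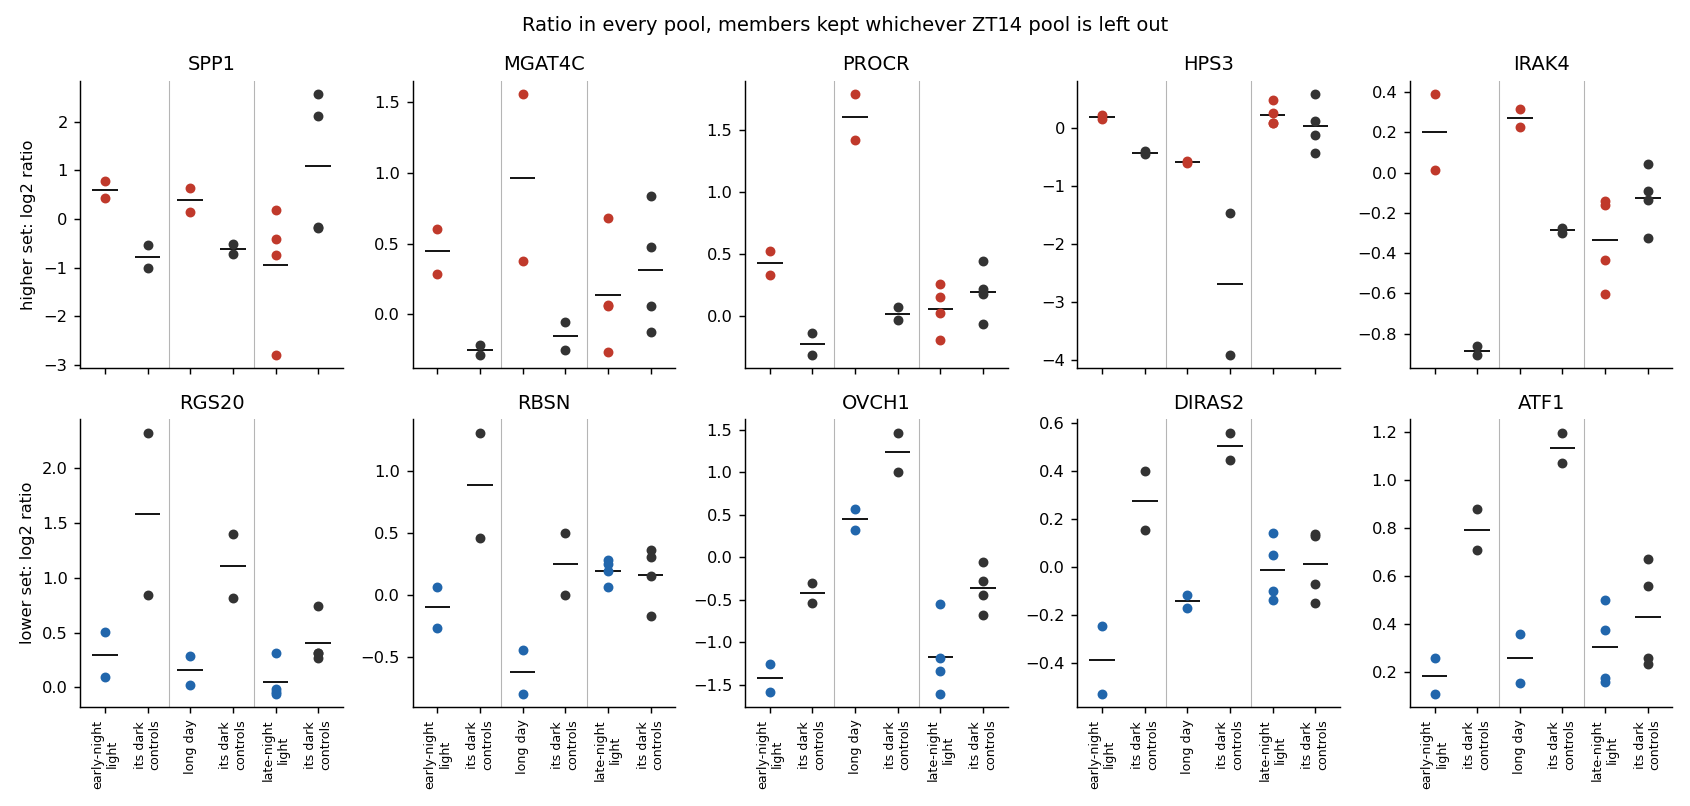
Log2 ratio to the common reference in every pool for the 10 genes that met the rule without any 1 of the 8 ZT14 pools, 1 panel a gene and 1 point a pool, by group. Coloured points are light pools, dark points their controls and lines group means; the ZT14 groups separate in every panel, while the 2 late-night groups overlap in all of them.

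Members were sorted by what their proteins are known to do, by hand and after the members were known, and 131 of 149 were given a role. The largest group, signalling, held 8 higher and 20 lower genes. Secreted and matrix proteins numbered 7 higher and 10 lower, and proteins of Golgi, endosome and vesicle traffic 10 higher and 7 lower. Neurotransmission and ion channels held 1 higher and 7 lower genes, and RNA processing and translation 7 higher and 1 lower. No test was made of these counts, since the members were chosen on the same differences. Only members were sorted, so no share over all genes stands beside the counts, and they show no theme. Of the separate lists, splicing had 0 members of 42 genes and neuronal markers 0 of 9, where 2.3% of eligible genes were members. These lists are not complete: the members ZRSR2 and ZNF830, tied to splicing, and the neuronal CALN1 are in no list. The 0 counts thus describe the lists and not all genes of that kind.

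**Figure D3:**
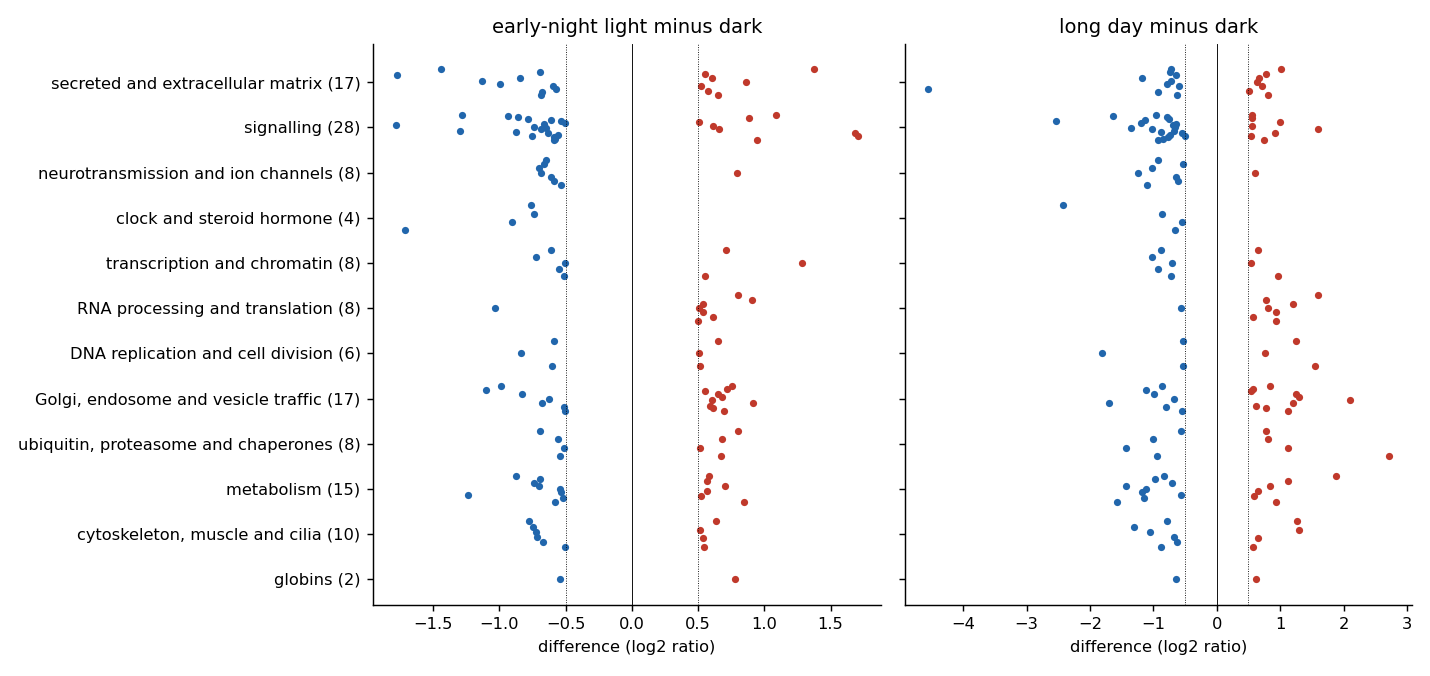
The 131 members with a role, by role group, with 1 point a gene and the number of genes in brackets; the axes give the light minus dark difference (log2 ratio) in each ZT14 paradigm, for the higher set in red and the lower set in blue. Signalling and neurotransmission members lie mostly on the lower side, and RNA processing members on the higher side. Genes outside the sets were not sorted by role.

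Among ligands and matrix proteins, WNT9A, a secreted Wnt, had 0.64 and 0.35 against 0.071 and -0.29 after early-night light and 0.93 and 1.18 against 0.12 and 0.65 in the long day. Its light pools were above its dark pools both times. The basement membrane chain LAMB1 was higher by 0.55 and 0.78, also with no overlap. On the lower side, F13A1, the chain of clotting factor XIII that is also made by macrophages, had 0.0046 and -0.57 against 0.83 and 0.29 and 1.32 and -0.28 against 1.40 and 2.00, where long-day light pool 1 lay close to dark pool 3. Several large differences came from 1 pool. GKN2, a stomach protein, owed its long-day difference of -4.56 to dark pool 4 at 9.22, with dark pool 3 at -0.29. The matrix proteoglycan EPYC and the growth factor FGF7 were high in early-night dark pool 1 (3.48 and 2.55) and not in dark pool 2 (-0.21 and -0.54). The matrix protein MEPE, in the lower set, is coded next to SPP1, in the higher set.

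Signalling genes of the lower set included several parts of the G protein and cAMP pathway. RGS5, a regulator of G protein signalling and a marker of pericytes, had -0.17 and 0.053 against 0.22 and 1.53 and -0.34 and 0.042 against 1.64 and 1.35. Both dark pools lay above both light pools each time, with early-night dark pool 2 far above dark pool 1. The mean of the other 12 pericyte and smooth muscle markers lay between -0.0821 and 0.00013 in early-night light and between -0.177 and 0.222 in its controls, and between 0.225 and 0.297 in the long day against 0.263 to 0.431. Whether it has a part in the RGS5 difference was not tested. Adenylate cyclase 7 (ADCY7), which makes cAMP, had -0.35 and 0.23 against 0.088 and 0.86 and -0.46 and -0.49 against 4.41 and -0.28, and only dark pool 3 set its long-day value apart. The cAMP phosphodiesterase PDE4C differed by -0.51 and -1.19, with overlap in both paradigms.

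Kinases and receptors followed. In the lower set, the log2 differences in the early night and under the long day were -0.78 and -0.75 for the pseudokinase TRIB2, -0.61 and -1.13 for protein kinase D1 (PRKD1) and -0.65 and -1.35 for the ephrin receptor EPHA1. EPHA1 had -0.12 and -0.42 against 0.44 and 0.31 and 0.60 and 0.70 against 2.27 and 1.73, so its pools did not overlap in either paradigm. The chemokine receptor CX3CR1, found on microglia, differed by -0.69 and -1.03, but 1 of its 2 probes was higher, not lower, after early-night light. In the higher set, CAMK2D had 0.60 and 0.064 against 0.058 and -0.41 and -1.47 and -0.66 against -2.28 and -1.83. The neuronal calcium-binding protein CALN1 differed by 1.68 and 0.91 and the kinase MAP3K9 by 0.88 and 0.56, of which early-night light pool 2 held the high value of MAP3K9 (2.12, against -0.29 in pool 1).

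A synthetic enzyme and a receptor of the dopamine system were in the lower set. Tyrosine hydroxylase (TH), which makes the precursor of dopamine, had -0.030 and -0.11 with early-night light against 0.85 and 0.30 in darkness and 0.52 and 0.88 in the long day against 1.65 and 1.60. The dopamine receptor DRD4, whose mRNA is abundant at night in the mammalian pineal, had -0.78 and -0.91 against -0.17 and -0.20 and 0.44 and 0.97 against 1.58 and 0.90. TH did not overlap in either paradigm, while in DRD4 long-day light pool 2 lay just above dark pool 4. The differences were -0.70 and -1.02 for the nicotinic subunit CHRNB4, -0.68 and -1.24 for the synaptic calcium sensor OTOF and -0.59 and -0.60 for the epithelial sodium channel subunit SCNN1B, and none of the 3 overlapped between light and its own dark controls in either paradigm. With all 4 ZT14 dark pools as controls the long-day difference was 0.38 for CHRNB4 and 0.17 for DRD4, and thus no longer negative. KCNMB4, an accessory subunit of calcium-activated potassium channels, was the only higher gene of this group, with 0.30 and -0.31 against -0.75 and -0.84 and 0.74 and -0.33 against -0.27 and -0.54. Its long-day pools overlapped.

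All 4 genes placed with the clock and steroid hormones were lower, and 0 of them separated light from dark in both paradigms. CRY1, a repressor of the clock, had -1.70 and -0.27 against -0.41 and -0.034 and 0.20 and -0.42 against 1.18 and 3.44. Its early-night difference rests on light pool 1, and light pool 2 lay between the 2 dark pools. FKBP5, a co-chaperone of steroid receptors, had -0.64 and -0.53 against 0.11 and 0.19 and -2.81 and -2.80 against -2.91 and -0.98, where dark pool 3 lay below both light pools. Against all 4 ZT14 dark pools its early-night difference was 0.31, no longer negative. The glucocorticoid-induced factor KLF15 differed by -0.91 and -0.56. Aromatase (CYP19A1), which makes oestrogens, differed by -1.71 and -0.66, with early-night dark pool 1 at 3.71 and dark pool 2 at -0.34.

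Among factors that act in the nucleus, the Hes family repressor HES4 (0.71 and 0.64) and the cell cycle regulator LIN9 (1.28 and 0.54) were higher. ATF1, the chromatin remodeller subunit ARID2 (-0.72 and -1.02), the TFIID subunit TAF8 (-0.51 and -0.71) and PYGO1 of Wnt signalling (-0.51 and -0.72) were lower. RBM7, which guides nuclear RNA to the exosome, had 1.32 and -0.24 against 0.48 and -0.47 and -0.19 and -1.97 against -2.67 and -1.90, and its light and dark pools overlapped in both paradigms. The cleavage factor CPSF7 (0.80 and 1.60) and the aspartyl-tRNA synthetase DARS (0.61 and 0.58) were higher, while the splice site factor ZRSR2 (-1.03 and -0.56) was lower. ANAPC13, a subunit of the anaphase-promoting complex, had -0.18 and -0.15 against -0.12 and -1.24 and -0.87 and -0.82 against -2.39 and -2.41. The long-day groups of ANAPC13 were far apart, while early-night dark pool 1 lay above both light pools. FBXO43, an inhibitor of the same complex, had differences of -0.84 and -1.81, with 1 high dark pool in each paradigm (3.17 and 6.22).

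Membrane traffic was split between the sets. GORASP1 and GOLT1A of the Golgi, ERGIC1 of the compartment between reticulum and Golgi, and the N-glycan enzyme MGAT3 were higher with differences of 0.75, 0.72, 0.56 and 0.61 in the early night, and of 0.84, 0.57, 0.54 and 0.78 under the long day. MAL, a proteolipid of apical and myelin membranes, was higher by 0.92 and 1.21. SEC31A of the vesicle coat that leaves the reticulum, the clathrin heavy chain CLTCL1 and the proton pump subunit ATP6V0A2 were lower, with differences of -0.63, -0.68 and -1.10 in the early night and -0.68, -1.70 and -1.11 under the long day. ATP6V0A2 had -0.61 and -0.43 in the long day against -0.92 and 2.10, so its long-day difference rests on dark pool 4. The 2 probes of CLTCL1 differed by -3.47 and 0.059 in the long day, where its dark pools had 1.97 and -0.50. GOLT1A had an early-night difference of -0.029 with all 4 ZT14 dark pools as controls. TRAK1, which ties mitochondria to kinesin, had 0.11 and -0.26 against 0.41 and 0.44 and -0.18 and 0.48 against 1.34 and 0.053, with overlap in the long day.

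Proteins that fold or break down others were also found on both sides. UBXN2A, an adaptor of the segregase p97, had -0.26 and -0.59 against -1.77 and -0.42 and -1.17 and -0.30 against -3.08 and -3.84, and its long-day difference of 2.72 was the largest in the higher set. Its early-night pools overlapped through dark pool 2. The deubiquitinase USP13 had 0.95 and 0.21 against -0.10 and 0.22 and -0.31 and 0.14 against -1.27 and -1.15, and 1 of its 3 probes was lower, not higher, after early-night light. HSPA4, a chaperone of the Hsp110 family, had 1.82 and -0.33 against 0.37 and -0.48 and -0.47 and -1.18 against -2.24 and -0.96, with overlap in both paradigms. Calnexin (CANX), the lectin chaperone of the endoplasmic reticulum, had 0.26 and 0.68 against 0.53 and 1.80 and -0.31 and -0.51 against -0.030 and 0.32, with overlap in the early night. RNF146, a ubiquitin ligase that recognises poly-ADP-ribose, had 0.037 and 0.0020 against 0.17 and 0.90 and -0.033 and 0.77 against 2.15 and 1.45, with light below dark each time.

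In metabolism, SPTSSB, a small subunit of the enzyme that starts sphingolipid synthesis, had 0.84 and 0.30 against 1.504 and 1.04 and 0.56 and 0.15 against 1.87 and 1.70. Light and dark pools of SPTSSB were clearly apart in both paradigms. FDFT1, the first enzyme committed to sterols, had 0.041 and -0.19 against 0.17 and 0.77 and -1.15 and -0.55 against 0.68 and -0.15, and both of its probes were lower in light each time. UST, a sulfotransferase of dermatan and chondroitin chains, had -0.12 and -0.33 against 0.28 and 0.30 and 0.68 and 1.07 against 1.73 and 2.33, and the hydrolase CMBL -0.33 and -0.73 against -0.10 and 0.52 and 0.84 and 0.38 against 1.55 and 1.08. Both genes separated light from dark in each paradigm. GPX7, a peroxidase of the endoplasmic reticulum, had 0.54 and 0.94 against -0.0036 and 0.35 and 1.04 and 0.97 against 0.66 and 0.050, all light pools being the higher ones. Malate dehydrogenase 2 (MDH2, 0.59 and 1.89) and the ferritin receptor NCOA4 (0.85 and 0.93) were higher, and the tyrosine-degrading enzyme FAH (-0.53 and -1.18) and the oxidase AOX1 (-0.87 and -0.84) lower, the last with a long-day difference of 0.054 against all 4 ZT14 dark pools.

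Of the 10 genes of cytoskeleton, muscle and cilia, RSPH9, a part of the radial spokes of motile cilia, had 0.89 and 0.21 against -0.12 and -0.044 and -0.21 and -0.76 against -2.55 and -0.94. The mean of the other 10 choroid plexus and ependyma markers, a group that includes cells with motile cilia, ran from -0.0661 to 0.222 in early-night light and from -0.242 to 0.0018 in its controls, and from -0.207 to -0.0652 in the long day against -0.118 to 0.0077. Its part in the RSPH9 difference was not tested. The membrane repair protein DYSF (-0.78 and -0.79) and the sarcoglycan SGCD (-0.75 and -1.30) were lower. Light and dark pools overlapped in both paradigms for DYSF and in the long day for SGCD. The 2 globins went opposite ways. HBBA, an adult beta globin, had 1.26 and 1.70 against 1.32 and 0.080 and 0.051 and 0.15 against -0.60 and -0.45, and HBZ, an embryonic alpha-type globin, -0.51 and 0.093 against 0.61 and 0.052 and -0.77 and -0.50 against 0.82 and -0.82. Early-night dark pool 1 of HBBA lay between the light pools, and long-day dark pool 4 of HBZ lay below both light pools. The mean of the other 3 erythroid markers overlapped between light and dark at both ZT14 comparisons, from -0.212 to -0.0394 against -0.149 to 0.558 and from -0.416 to 0.287 against -0.308 to -0.246. No role was given to 10 higher and 8 lower genes, whose differences were 0.51 to 1.47 and -0.57 to -0.97.

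The 16 pathway lists held 6 higher and 9 lower members, and the 9 lists of cell type markers 3 and 2, with PROCR and RGS5 in lists of both kinds. For scale, 2.3% of eligible genes were members. The core clock list had 1 member, CRY1, of 11 measured, with list medians of 0.032 in the early night and -0.25 under the long day. Of 32 genes of cAMP and calcium signalling 3 were members (CAMK2D higher, ADCY7 and ATF1 lower, list medians -0.071 and -0.074), and of 17 RGS proteins and G protein regulators 2, both lower (RGS5 and RGS20, list medians -0.050 and -0.26). The medians over all genes with a symbol were -0.0046 and -0.00058. Heat shock proteins and co-chaperones gave 2 of 22 (HSPA4 higher, FKBP5 lower, medians -0.055 and -0.11), and protein C and haemostasis 2 of 15 (PROCR higher, F13A1 lower, medians -0.058 and 0.071).

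Single members came from 5 further lists. These were Toll-like and interleukin-1 signalling (IRAK4, of 24, medians 0.038 and -0.025), sphingolipids (SPTSSB, of 16, medians -0.078 and -0.015), sterol synthesis (FDFT1, of 12, medians -0.0074 and -0.033), thioredoxin and antioxidant proteins (GPX7, of 18, medians 0.076 and 0.096) and nuclear RNA surveillance (RBM7, of 19, medians 0.11 and -0.18). The 18 thioredoxin and antioxidant genes include TXN, which differed by 2.11 and 1.61 but was left out by name. Melatonin synthesis, with 6 genes measured, had 0 members and medians of 0.10 and 0.22. Phototransduction, also with 6, had 0 members and medians of 0.30 and 0.20, and pineal transcription factors 0 of 5 with 0.077 and 0.0019. Immediate early genes gave 0 of 19 (-0.056 and 0.031), splicing 0 of 42 (-0.047 and -0.025) and the cell cycle 0 of 31 (0.16 and 0.13). No measured gene of the melatonin, phototransduction and pineal transcription factor lists was therefore a member.

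Marker lists gave 2 members of 5 erythroid markers (HBBA and HBZ, medians -0.40 and 0.26), PROCR of 12 endothelial (0.063 and 0.38), RGS5 of 13 pericyte and smooth muscle (-0.10 and -0.18) and RSPH9 of 11 choroid plexus and ependyma markers (0.16 and -0.0016). The remaining marker lists had 0 members: 15 lymphoid (-0.016 and -0.092), 12 macrophage and microglia (-0.00089 and -0.0050), 13 fibroblast and meningeal (-0.068 and 0.24), 8 astrocyte and glia (0.14 and 0.37) and 9 neuronal markers (-0.13 and -0.13). The macrophage and microglia list does not hold the members CX3CR1, F13A1 and SPP1, which such cells can also express.

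Averaged over a set, the ZT14 dark pools of the long day lay farther from 0 than those of early-night light. The mean ratio of the higher set was -0.30 and -0.45 in the early-night dark pools and -0.97 and -0.75 in the long-day dark pools. Its light pools had 0.40 and 0.25 in the early night and 0.090 and 0.034 in the long day. The lower set had 0.47 and 0.61 and then 0.99 and 1.00 in darkness, and -0.23 and -0.19 and then 0.015 and 0.064 in light. Both dark groups lived in the same cycle and were taken at the same hour. The median of long-day controls minus early-night controls was -0.45 in the higher set, 0.34 in the lower set and 0.022 over all genes with a symbol. The light pools differed between the paradigms in the same directions, with medians of -0.31, 0.23 and 0.016. The rule used all of these pools, so the medians of the sets describe the choice and carry no test. The median over all genes, which were not so chosen, is no yardstick for them. The long-day light pools were near the reference and the long-day dark pools were far from it, on arrays whose values spread more widely for all genes.

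**Figure D4:**
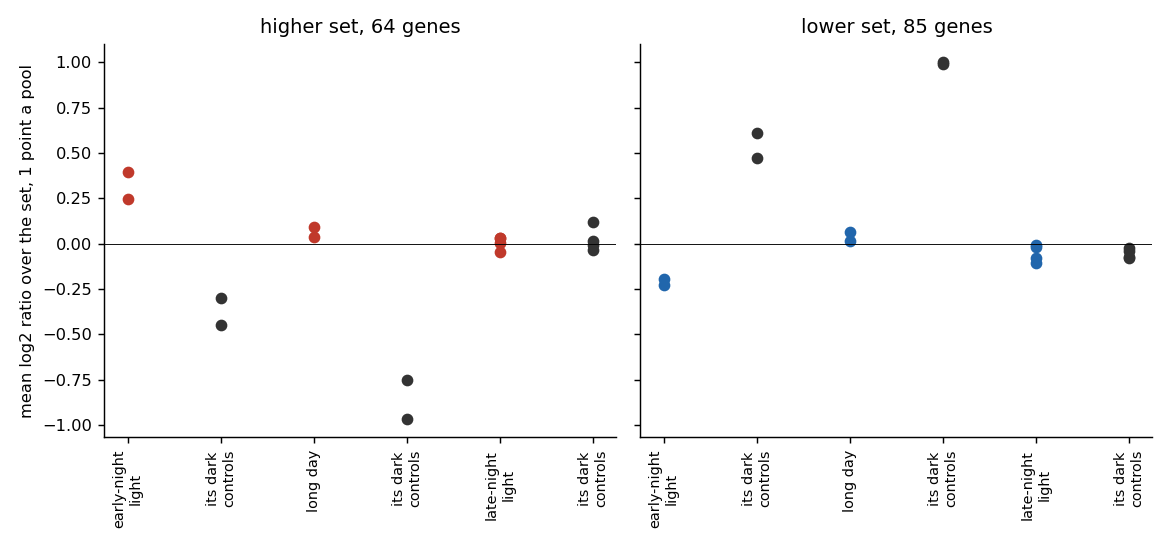
Mean log2 ratio over the 64 genes of the higher set (left) and the 85 of the lower set (right), 1 point a pool, in each of the 6 groups. The ZT14 groups lie apart by the choice of genes, with the long-day dark pools farthest from 0, and the 8 late-night pools, which the choice did not use, lie between -0.109 and 0.12 in both panels.

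Late-night light was the comparison outside the rule. Both sets had medians close to 0 there. The median difference was -0.034 in the higher and 0.017 in the lower set, beside 0.0030 over all genes with a symbol, of which 90% lay between -0.37 and 0.39. Of the higher set 29 genes were positive and 35 negative, and of the lower set 45 were positive and 40 negative, where 50.6% of all genes were positive. Limma, fitted over all 12532 genes and features, called 0 members at an adjusted p under 0.05, as it called 0 (0.0%) of all. The variance of the fit also came from the ZT14 pools, so a member with an outlying ZT14 pool got a wide late-night SE. For GKN2 the SE was 1.37, while its late-night pools had an SD of 0.63 in light and 0.69 in darkness. The 0 calls are thus not free of the choice. At an unadjusted p under 0.05 there were 4 members in the higher set (1 higher and 3 lower) and 4 in the lower set (3 higher and 1 lower), with 1.95% of all genes higher and 1.97% lower by that measure. In simulated data for this comparison the fit recovered 52.5% of genes changed by 1 on the log2 scale and 93% of those changed by 2. The simulation gave a gene the same SD on every array, unlike these arrays, so the rates are a rough guide only. A change of 0.5, the limit of the rule, was not simulated, and differences of that size can be missed in single genes.

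Pools did not overlap in late-night light for 5 higher-set genes, 4 of them with light below dark (HBBA, KCNMB4, SPATA1 and LAMB1) and 1 above (WNT9A), and for 3 lower-set genes, all with light above dark (FAM210A, CANX and TRAK1). Over all genes 2.79% lay above and 2.0% below without overlap. Of these 8 genes WNT9A alone had the sign it had at ZT14. HBBA had -0.52, -0.64, -0.93 and -0.50 in late-night light against 0.55, 0.22, 0.34 and 1.005 in darkness, a difference of -1.18 ± 0.25 (SE, 4 pools each, limma adjusted p = 0.642). All 4 light pools of HBBA were lower, and the difference was -1.08 within the first series of array numbers and -1.18 within the second. HBZ, the other globin among the members, differed by -0.017 ± 0.32. The 3 erythroid markers that are not members had means of 0.0736 to 0.291 in these light pools and -0.0905 to 0.139 in the dark ones. They did not go 1 way: RHAG was lower in light (-0.28 ± 0.15), and TFRC (0.20 ± 0.27) and CA2 (0.40 ± 0.24) were higher. Lymphoid and macrophage markers were lower on average in the same comparison: the means of 15 lymphoid markers lay between -0.145 and -0.106 in light and between 0.0126 and 0.566 in darkness (3 of 15 positive), and those of 12 macrophage and microglia markers between -0.402 and 0.0053 against -0.0444 and 0.291 (0 of 12 positive). The 13 fibroblast and meningeal markers had means of -0.226 to 0.0497 in light and -0.0049 to 0.150 in darkness (2 of 13 positive), the 12 endothelial -0.0991 to -0.0168 and -0.0780 to 0.0378 (3 of 12 positive) and the 11 choroid plexus and ependyma markers -0.0969 to 0.300 and -0.239 to -0.0867 (10 of 11 positive). In the remaining marker lists 6 of 13 pericyte and smooth muscle, 4 of 8 astrocyte and glia and 4 of 9 neuronal markers were positive. The part of these lists in the late-night values of HBBA and of SPP1 was not tested.

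KCNMB4 had -0.77, -1.29, -1.38 and -0.85 in late-night light against -0.56, -0.38, -0.11 and -0.24, a difference of -0.75 ± 0.23 (limma adjusted p = 1). Its light pools were the lower ones in both series of array numbers, with a difference of -0.68 in each. SPP1 had 0.18, -0.40, -0.74 and -2.80 against -0.19, -0.16, 2.10 and 2.56, a difference of -2.02 ± 0.67 (limma adjusted p = 1). That value comes from the 3 arrays of the second series, light pool 4 and dark pools 3 and 4. Within them it was -5.14, while it was -0.15 within the first series. The SE of 0.67 is that of the fit over all 16 arrays. The late-night pools of SPP1 themselves had an SD of 1.30 in light and 1.46 in darkness. WNT9A had 0.35, 0.52, 0.39 and 0.39 against -0.050, -0.18, 0.21 and 0.18 and a difference of 0.37 ± 0.16 (limma adjusted p = 1). It was the 1 higher-set gene with a small p whose sign was that of ZT14.

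OVCH1 was the 1 lower-set gene with a small p that was lower in late-night light too. It had -1.19, -1.61, -1.34 and -0.55 against -0.68, -0.059, -0.45 and -0.28, a difference of -0.81 ± 0.22 (limma adjusted p = 0.977). Light pool 4 of OVCH1 lay above dark pool 1, and the difference was -1.01 within the first series and -0.19 within the second. CANX had 0.79, 0.22, 1.32 and 0.51 against -0.16, 0.088, 0.0055 and 0.049, a difference of 0.71 ± 0.27 (limma adjusted p = 1), opposite to its sign at ZT14. RNF146 (0.53 ± 0.24) and CMBL (0.45 ± 0.21) were higher as well, both with a limma adjusted p of 1. RGS20 had -0.36 ± 0.27, the sign it had at ZT14, with -0.44 within the first series and -0.35 within the second. The other genes that met the rule without any 1 pool lay between -0.21 ± 0.15 for IRAK4 and 0.19 ± 0.38 for HPS3 in late-night light. CRY1 had 0.77 ± 0.69, and -0.10 within the first series against 0.83 within the second.

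**Figure D5:**
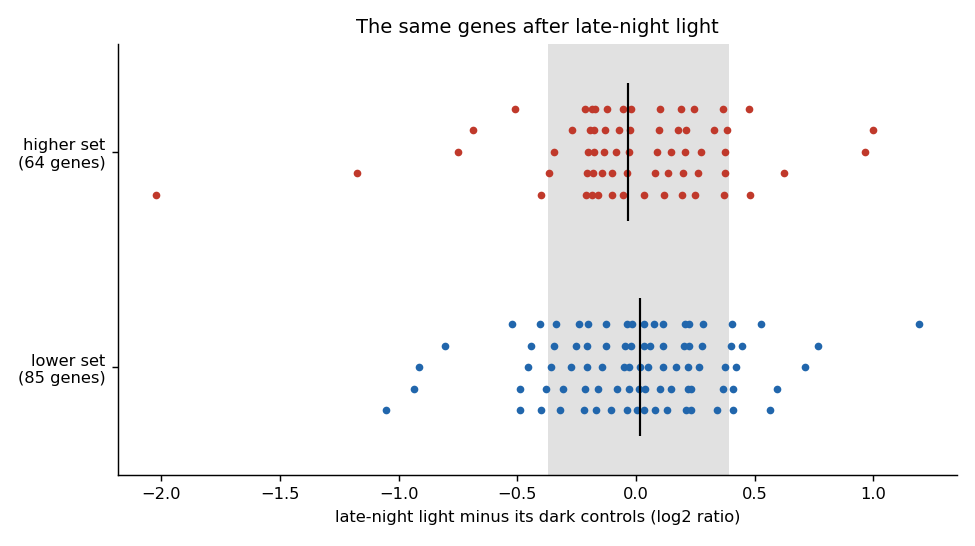
Late-night light minus its dark controls (log2 ratio) for each gene of the higher set (red) and the lower set (blue), with points stacked only to keep them apart. Black lines mark the set medians of -0.034 and 0.017, and the grey band holds 90% of all genes with a symbol, from -0.37 to 0.39; both sets spread to either side of 0.

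For the ZT14 comparisons limma's calls over all genes are given as a description only, because the rule used the same pools. After early-night light 0 members passed, where 0.015% of all genes with a symbol passed upwards and 0.0% downwards. In the long day 4 of the higher set passed (UBXN2A, PROCR, USP13 and ANAPC13), where 1.74% of all genes with a symbol passed upwards, and 5 of the lower set (RGS5, SPTSSB, ATF1, UST and RNF146), where 1.41% passed downwards. For the mean of both paradigms UBXN2A, PROCR and IRAK4 passed upwards, as did 0.21% of all genes, and RGS5 and SPTSSB downwards, as did 0.135%.

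In the gene order of the GRCg7b assembly, 4 pairs of members lie next to each other or nearly so. SPP1 and MEPE, DMXL2 and CYP19A1, and ZC2HC1C and NEK9 are direct neighbours among protein-coding genes, and in each pair the first belongs to the higher and the second to the lower set. COCH and PRKD1, both lower, have 2 genes between them. How many neighbours other sets of this size would hold was not counted, so the pairs are a description only. Light and dark pools overlapped in both paradigms for MEPE and NEK9, and in 1 paradigm for DMXL2, CYP19A1 and PRKD1.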

How the data were processed

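Pineal RNA of 16 pools was measured on 2-channel cDNA arrays, with the pool in the Cy3 channel and the common reference in the Cy5 channel, per the labels. The authors deposited a log ratio per probe and array, taken here as log2. The background correction, normalization, log base and numerator were not given in the labels. From 15769 probes 160 control spots were removed. A gene is the mean of its probes by the platform annotation (9628 probes with 1 symbol, 5981 with none), and genes with at least 2 values in every group were kept (12532, of which 6660 have a symbol).

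Limma 3.58.1 in R 4.3.3 fitted 6 group means over all 16 arrays (residual degrees of freedom 10, prior 3.33). It was checked on simulated data. P-values are two-sided and adjusted by Benjamini-Hochberg over 12532 features. They rest on the spread between pools within the 6 groups over all 16 arrays, not on that of the compared pools alone. Members, gene lists and tests were chosen with earlier results of these data known. Named are members that met the rule without any 1 pool, with a late-night p under 0.05, in a gene list, at the edge of the rule, or called by limma at ZT14, and others as examples of a role, chosen after their values were seen. Alternatives were other normalizations, limits, controls, probe summaries, fits and omitted pools. By array number, 3 of the late-night arrays (1 light, 2 dark) form a second series. Pools of the same number did not deviate together in every late-night pair, so numbers were not used as pairs. Sequences were not used here.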

Additional observations from a re-analysis of the deposited data

Results flagged for a closer look

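Of 76 late-night groups of 4 pools looked at for the 38 genes named by rule, 9 held a pool far from the other 3. The limit used flags about 1 in 20 independent groups of equal spread. The late-night arrays differ in spread and are shared by all 76 groups, and no flag rate over all genes was taken. The count of 9 therefore cannot be read as an excess. In late-night light, CRY1 had -1.81 in pool 4, HBZ -0.842 in pool 3, HSPA4 0.616 in pool 4, RBM7 3.62 in pool 3, RGS20 0.315 in pool 1, RSPH9 0.513 in pool 4, SPTSSB 0.729 in pool 1 and UBXN2A 0.0977 in pool 3. In the late-night controls RGS20 had 0.742 in pool 1. Those of CRY1, HSPA4 and RSPH9 are light pool 4, the 1 light array of the second series of array numbers. The flagged light pools of HBZ, RBM7, UBXN2A, RGS20 and SPTSSB are of the first series. The rule looks for 1 pool far from the other 3. It cannot show a split by series among the 4 dark pools, of which 2 are of the second series. A link between the flags and the series was not tested.

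For 7 members every late-night light pool lay on the side of all dark pools opposite to the light difference at ZT14. This difference between late-night and ZT14 light was not tested. Over all genes with a symbol, 2.79% lay above and 2.0% below dark without overlap in late-night light. WNT9A also lay apart from dark, in the direction it had at ZT14. The count of 7 by itself thus shows no reversal between the hours. HBBA (-1.18), KCNMB4 (-0.751), SPATA1 (-0.367) and LAMB1 (-0.202) of the higher set were lower in late-night light, and CANX (0.712), FAM210A (0.409) and TRAK1 (0.408) of the lower set were higher.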

How the results depend on the processing

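Membership depended on the limit, the scaling and the pools. With a limit of 0.4 in place of 0.5 there were 134 higher and 162 lower genes, with 0.75 there were 8 and 15, and with 1 there was 1 of each. Quantile normalization left 40 higher genes (23 of them members) and 49 lower (30 members), arrays scaled to equal SD 34 (20 members) and 51 (33 members), and all 4 ZT14 dark pools as controls, which both paradigms then share, gave 131 (27 members) and 161 (44 members). Leaving out 1 pool gave 72 to 112 higher and 77 to 137 lower genes. The median of probes (61 and 86), arrays centred on their median (60 and 89), values on all 16 arrays (64 and 85) and, chosen after seeing the data, no filter (64 and 88) moved the counts little.

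In late-night light 0 members were called in all 18 settings. With the replicate block 0 were called and 23 had an unadjusted p under 0.05, against 8 without it. No share over all genes stands beside the 23 for that fit. The rise from 8 to 23 therefore cannot be read as a result about the members. The block was not used as pairing, since same-numbered pools correlated at 0.31, 0.19, -0.0002 and 0.31. The median of the higher set, -0.034, was 0.021 with the series of array numbers as a block, 0.037 with array weights, 0.013 with scaled arrays, 0.0093 after quantile normalization and 0.096 within the first series. Without 1 pool it ran from -0.058 to 0.052. The median of the lower set, 0.017, was -0.014 with array weights and -0.014 within the first series, and ran from 0.0044 to 0.055 without 1 pool. The cause was not tested. SPP1 ran from -2.58 to -0.15 over the 18 settings, and HBBA from -1.64 to -1.02 with a lowest limma adjusted p of 0.0691.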
